A study of Mus musculus with 8 samples.

Results

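The cytosolic ribosomal protein genes are described here in the mouse brachiocephalic artery, a large vessel that leaves the aortic arch and is prone to plaques. They were taken by name, as every row of the deposited table whose symbol is Rps or Rpl followed by a number with at most a short suffix, or is Rplp0, Rplp1, Rplp2 or Rpsa. This rule took 88 of 49585 genes, of which 36 carried Rps names of the small subunit and 52 carried the names of the large one. No measured value entered the choice.

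All mice in the study were ApoE-deficient and were put on a high-fat diet at the age of 12 weeks. Control mice were injected with non-immune IgG and treated mice with clone HMD1-5, an antibody that blocks Dll1, a ligand of the Notch receptors. Either was given into the peritoneum at 250 micrograms, 2 times a week. Total RNA of the whole vessel was depleted of ribosomal RNA and made into stranded libraries, 4 per group. Whether the samples are separate animals is not stated in the labels, and p-values therefore measure only how far these samples vary, in part perhaps for technical reasons.

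The table held 8 libraries under the numbers 045 and 076, each with 2 IgG and 2 antibody libraries, and no source used here explains these numbers. Each number is called a set: C1IA and C2IA (IgG) with D1IA and D2IA (antibody) in set 045, and G1IA and G2IA (IgG) with another D1IA and D2IA (antibody) in set 076. Values are TPM, a share of transcripts adjusted for gene length. Multiplied by annotated exon length, the TPM of 19704 of the 25386 genes above 0 came out as whole multiples of a single step per library. That step was taken to be 1 read. For the other 5682 genes a length that gives whole multiples was searched for, so that their whole values are no check of the step. The recovered reads totalled 11062677 to 13816416 per library. Reads on nuclear protein-coding genes numbered 663099 to 2729071 in set 045 and 7422343 to 8070921 in set 076, where these genes took 0.848% to 3.10% and 21.2% to 24.2% of TPM. Levels were therefore compared on a protein-coding scale, on which the nuclear protein-coding genes of each library sum to 1000000. All 10 smooth muscle markers and all 8 endothelial markers examined were above 0 in every group of both sets. On the protein-coding scale the smooth muscle markers summed to 603 to 1017 in set 045 and to 3740 to 4919 in set 076. In the test between the sets described below, 8 of the 10 were called higher in set 076 (2.67% of all genes tested). None of them was called lower (6.84%). Apoe itself lay between 11.4 and 48.9 on that scale, and whether its deleted part was measured was not checked.

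The ribosome is built from ribosomal RNA and a protein set in which nearly every member is present in a single copy, so that its genes are read at high and balanced rates in all growing cells. Their mRNAs typically begin with a C followed by a run of pyrimidines, the 5′ terminal oligopyrimidine (TOP) tract, through which mTOR signalling sets how much of them is translated. Each gene has many processed pseudogenes, which are DNA copies of its spliced mRNA, and a few have expressed paralogs with a narrower range of tissues.

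Promoter windows of 35 bases before and 25 bases after the annotated start are shown to make the tract visible. RefSeq promoters on build GRCm38.p6 were found by symbol for 63 of the 88 genes. In capitals is a run of at least 5 C or T that begins with C at the annotated start or within 5 bases of it. The first 4 windows belong to the genes of highest level with such a run counted from the start itself. In each of them the base before the start is also C or T, which was not counted. The next 4 belong to the genes that passed the test between the sets. The last belongs to the muscle paralog Rpl3l.
Rps6: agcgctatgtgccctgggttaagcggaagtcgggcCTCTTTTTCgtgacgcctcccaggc
Rpl38: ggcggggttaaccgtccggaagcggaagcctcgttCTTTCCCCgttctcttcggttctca
Rps21: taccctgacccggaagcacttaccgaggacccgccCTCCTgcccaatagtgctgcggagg
Rps27: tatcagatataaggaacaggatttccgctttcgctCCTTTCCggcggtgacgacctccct
Rps27l: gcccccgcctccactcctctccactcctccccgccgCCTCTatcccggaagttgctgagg
Rps12: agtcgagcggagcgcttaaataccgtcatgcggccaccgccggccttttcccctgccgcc
Rpl27: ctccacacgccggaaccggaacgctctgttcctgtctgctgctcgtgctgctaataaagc
Rps3: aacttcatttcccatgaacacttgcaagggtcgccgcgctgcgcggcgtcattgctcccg
Rpl3l: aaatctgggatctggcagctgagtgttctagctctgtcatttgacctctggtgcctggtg

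A run within 5 bases of the start was present in 29 of the 63 genes with a promoter (46.0%), against 5718 of all 27025 genes with one (21.2%). Counted from the start itself, whatever base came before, it was present in 13 of the 63 (20.6%), against 813 of all genes (3.01%). The list called translation factors here was picked as genes with a TOP tract or close to it, and not all of its genes are translation factors. It had the run within 5 bases in 5 of 12, which is therefore no independent comparison. Mitochondrial ribosomal protein genes had it in 17 of 69. Rps12, Rpl27, Rps3 and Rpl3l had no run within 5 bases of the start, which says only that these letters are not near the annotated start. In the printed Rps12 window a long run of C and T does follow, further after the start than was searched. The search was made on the coding strand only, and both definitions of the run were chosen after the expression values had been seen.

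Of the 88 genes, 83 were above 0 in at least 1 library and 79 in all 8. Rps4l, Rps12l1, Rps3a3, Rpl10l and Rpl39l were at 0 reads in all libraries. By the GENCODE M21 annotation Rps4l, Rps12l1 and Rps3a3 are pseudogenes, as are Rpl6l and Rps3a2, while Rpl10l and Rpl39l are protein-coding paralogs known for expression in testis. A mean of at least 1 on the protein-coding scale, the minimum for a test, was reached by 82 genes and missed by Rps3a2, which had 0 reads in set 045 and 1 to 3 reads per library in set 076. The genes lay on 19 chromosomes, and 30 of them held a small nucleolar RNA gene within their bounds on the same strand, up to 5 in one gene.

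Of all TPM, the genes together took 0.0652% to 0.154% per library of set 045 and 1.17% to 1.31% per library of set 076. On the protein-coding scale the sets lay close together. In set 045 the share of protein-coding TPM was 5.06% in C1IA and 4.97% in C2IA of the IgG group, and 7.69% in D1IA and 6.60% in D2IA of the antibody group. In set 076 it was 5.60% in G1IA and 6.16% in G2IA, and 5.79% in D1IA and 4.82% in D2IA. Both antibody libraries thus lay above both IgG libraries in set 045, while the groups overlapped in set 076.

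**Figure D1:**
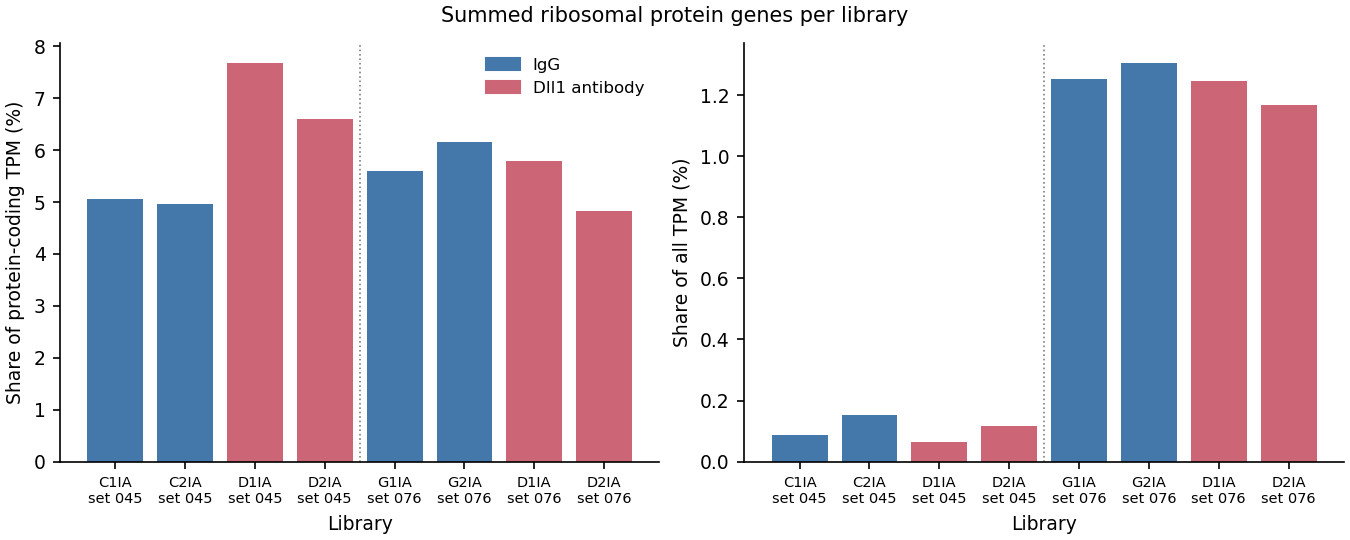
Bars give the summed TPM of the 88 ribosomal protein genes in each library as a percentage of protein-coding TPM (left) and of all TPM (right), for IgG (blue) and Dll1 antibody (red), with a dotted line between the sets. On the left the antibody libraries of set 045 stand at 7.69% and 6.60% above IgG libraries at 5.06% and 4.97%, and on the right set 045 lies at or below 0.154% and set 076 at or above 1.17%.

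The mean share of protein-coding TPM in set 045 was 5.01% ± 0.0632 (SD, n = 2) with IgG and 7.14% ± 0.766 (SD, n = 2) with the antibody, a ratio of 1.43. In set 076 it was 5.88% ± 0.398 (SD, n = 2) with IgG and 5.31% ± 0.688 (SD, n = 2) with the antibody, a ratio of 0.902. Over both sets it was 5.45% ± 0.554 (SD, n = 4) with IgG and 6.23% ± 1.22 (SD, n = 4) with the antibody, a difference smaller than the spread among the antibody libraries. As a share of protein-coding reads, with no adjustment for length, the IgG libraries of set 045 had 1.87% and 1.92%, and its antibody libraries 3.31% and 2.50%. As a share of all TPM the ratio in set 045 turned to 0.757, where protein-coding genes themselves took 1.70% and 3.10% of TPM in the IgG libraries and 0.848% and 1.76% in the antibody libraries. In a whole vessel, a changed number of cells of a type and a changed amount of RNA per cell cannot be told apart.

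D1IA of set 045 had both the highest share and the fewest protein-coding reads, 663099. C1IA and D2IA of set 045 had like numbers of them, 1675872 and 1598471, and their shares were 5.06% and 6.60%. The balance of the subunits was nearly constant: small over large subunit genes gave a ratio of 0.795, 0.784, 0.847 and 0.799 in C1IA, C2IA, D1IA and D2IA of set 045. In G1IA, G2IA, D1IA and D2IA of set 076 it was 0.822, 0.839, 0.837 and 0.804.

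The order of the genes by level was much alike in the sets, with a Spearman rho of 0.951 between the set means over the 82 tested genes, which share libraries and gene models and are not independent replicates. The 10 most abundant genes made up 30.5% to 33.5% of the summed level in every library. Rplp1, a protein of the lateral stalk that draws elongation factors to the ribosome, was highest, with a mean protein-coding scale level of 4536 ± 884 (SD, n = 4) in set 045 and of 3558 ± 374 (SD, n = 4) in set 076. Rps3a1, of the small subunit, followed with 3066 ± 681 (SD, n = 4) and 2243 ± 193 (SD, n = 4). Rps15, Rplp0, Rps23 and Rps24 came next, with means over all libraries of 1697, 1679, 1620 and 1529, and these neighbours in the order differed by less than their spread.

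The stalk genes differed in level although their proteins stand in 1 complex: Rplp0, its base, was at 1359 to 2209 in set 045 and 1334 to 1749 in set 076. Rplp2, the partner of Rplp1, was at 524 to 823 in set 045 and at 366 to 461 in set 076, with no overlap between the sets. Its difference was -0.73 (SE 0.22) on the log2 scale, which did not pass the test (limma, adjusted p = 0.0731). Rpsa, a small subunit protein also known as the laminin receptor, was at 594 to 975 in set 045 and 632 to 845 in set 076.

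**Figure D2:**
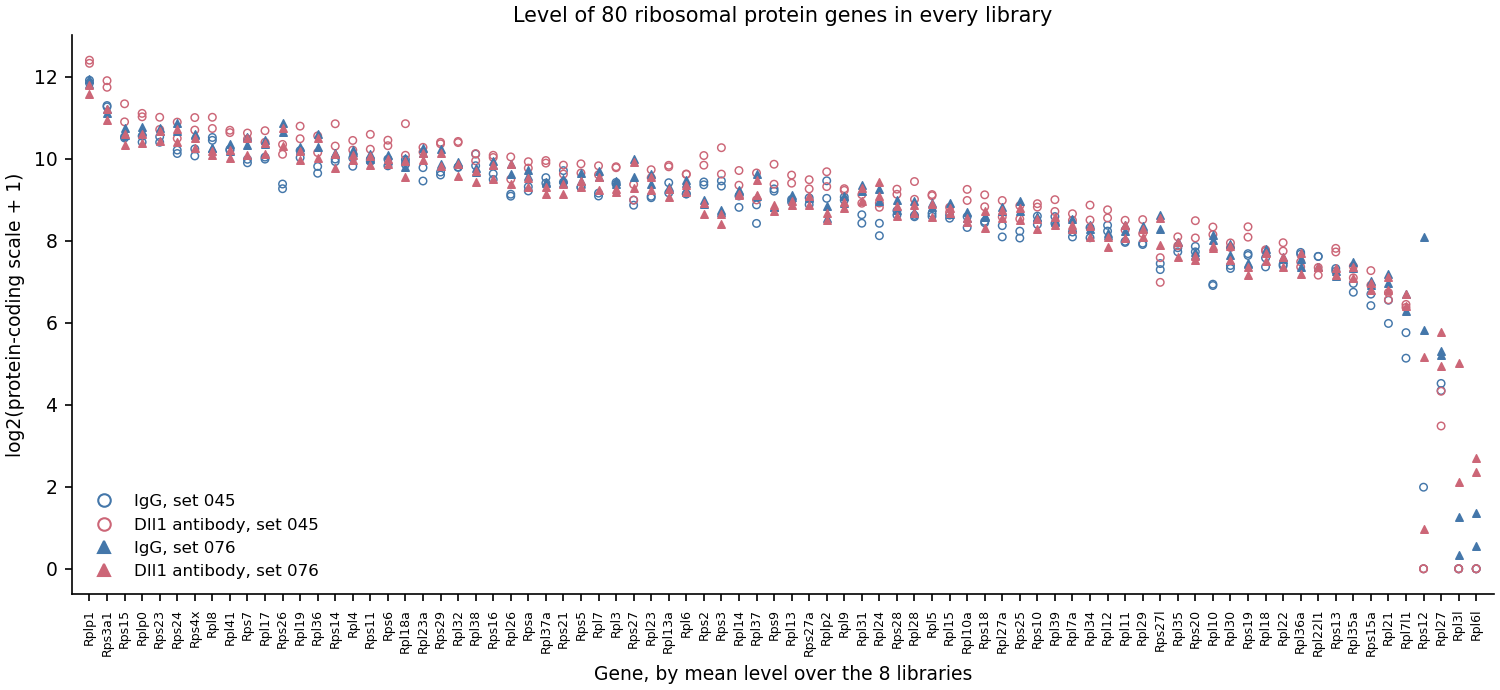
Each column is 1 of 80 of the 82 tested ribosomal protein genes, ordered by mean level, and each mark is 1 library on a log2(protein-coding scale + 1) axis, with open circles for set 045, triangles for set 076, blue for IgG and red for the antibody. For most genes from Rplp1 down to Rpl7l1 the 8 marks lie close together. Rpl10, at 119 to 322 before the log, and Rpl7l1, Rps26 and Rpl37 are spread more widely. Rps12, Rpl3l and Rpl6l at the right fall to 0 in libraries of set 045.

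At the low end, Rpl21 had a mean of 109 over all libraries, Rpl7l1 of 77.6, Rps12 of 45.8, Rpl27 of 28.7, Rpl3l of 4.53 and Rpl6l of 1.46. Rps12 and Rpl27 encode core proteins of the small and the large subunit. In both cases, and for Rpl10, another row of the table held a sequence that is the same. The first 90 coding bases, read from the annotated transcripts of GENCODE M21, are shown to make this plain, with the unmarked pairs identical and with differing bases in capitals for Rps27 and its diverged paralog Rps27l.
Rps12: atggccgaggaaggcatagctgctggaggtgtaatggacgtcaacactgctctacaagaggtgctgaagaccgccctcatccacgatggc
Rps12-ps3: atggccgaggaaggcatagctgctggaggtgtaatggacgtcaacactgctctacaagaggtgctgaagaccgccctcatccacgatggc
Rpl10: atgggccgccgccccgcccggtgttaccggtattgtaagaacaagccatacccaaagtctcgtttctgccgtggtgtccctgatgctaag
Rpl10-ps3: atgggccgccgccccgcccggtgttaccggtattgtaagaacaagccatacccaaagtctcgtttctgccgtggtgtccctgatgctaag
Rps27: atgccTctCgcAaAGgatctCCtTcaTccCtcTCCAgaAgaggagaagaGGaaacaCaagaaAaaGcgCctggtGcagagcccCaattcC
Rps27l: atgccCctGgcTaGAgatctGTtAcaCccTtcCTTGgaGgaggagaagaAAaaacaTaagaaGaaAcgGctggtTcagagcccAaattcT

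Rps12 on chromosome 10 and the row Rps12-ps3 on chromosome 19 matched at all 494 aligned transcript bases. Rpl10 on the X chromosome and Rpl10-ps3 on chromosome 9 matched at all 740 aligned bases, and Rpl27 on chromosome 11 and Rpl27-ps3 at all 411. How the authors' counting placed reads that match several genes is not known here, so the split between such rows is uncertain.

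Rps12 had 0, 1, 0 and 0 reads in C1IA, C2IA, D1IA and D2IA of set 045, and 57, 308, 41 and 1 in G1IA, G2IA, D1IA and D2IA of set 076. Its copy Rps12-ps3 had 375, 546, 283 and 439 reads in set 045 and 1845, 1946, 2283 and 1655 in set 076. The copy's level ranged from 1524 to 2987 on the protein-coding scale, among those of the most abundant ribosomal protein genes, and Rps12 from 0 to 272. Rps12 varied most of all members in both sets, with an SD of 1.00 and 2.97 on the log2 scale. Summed with the 23 rows named as its copies, it had an SD of 0.39 and 0.16. Rps12-ps3 alone had 0.40 and 0.13, so that the sum mostly describes that row and cannot show how reads were split.

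Rpl10, which joins the large subunit last and is needed for the subunits to meet, held 119 and 122 on the protein-coding scale in the IgG libraries of set 045 and 284 and 322 in its antibody libraries. Its copy Rpl10-ps3 held 1913 and 1960 against 2245 and 2478 in the same libraries. Rpl27 held 10.2 to 22.0 in set 045 and 29.6 to 54.1 in set 076, and Rpl27-ps3 held 569 to 968 and 993 to 1284. In each of these cases the row named as a copy held most of the reads in every library.

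**Figure D3:**
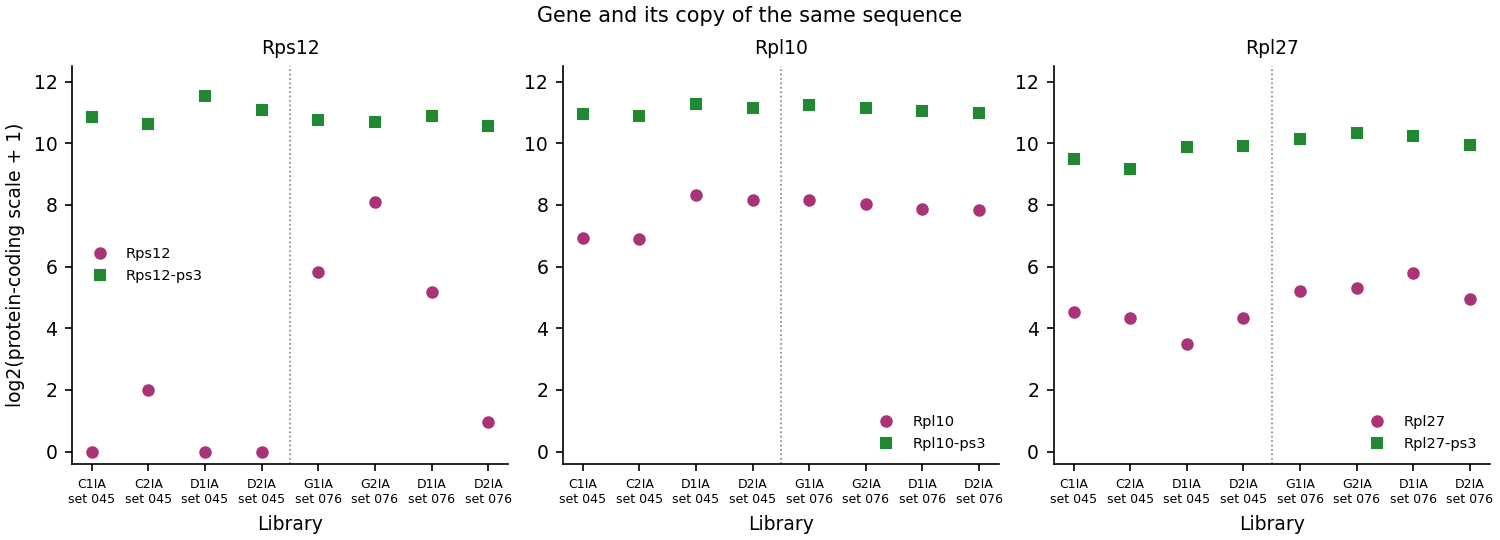
Points give log2(protein-coding scale + 1) of Rps12, Rpl10 and Rpl27 (circles) and of the rows named Rps12-ps3, Rpl10-ps3 and Rpl27-ps3 (squares) in each library, with a dotted line between the sets. The squares stay between 569 and 2987 before the log in all libraries, while Rps12 runs from 0 to 272.

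Shared sequence was common in the family, and a level far below that of the leading copy was not. Of 83 members with a protein-coding transcript, 80 shared at least 1 stretch of 50 bases with the transcript of another gene, and 44 shared over 50% of such stretches. For 74 of them the gene sharing most was a row of the table. That row had under 1% of the member's reads for 66 of the 74 and more reads than the member for 4, namely Rps12, Rpl10, Rpl35 and Rpl10l. For Rpl35 it was the gene model Gm2000 (8824 reads over all libraries against 3202), and for Rpl10l it was a pseudogene with 3 reads against 0. Where genes shared equally, the first by name was taken, so that the counts of 66 and 4 depend on this order. For Rpl27 it was the pseudogene Gm11518 with 0 reads. Rpl27-ps3, identical to Rpl27 at all 411 aligned bases and with more reads, was therefore not counted among these 4. Rps27 shared 98.6% of its stretches with Rps27rt, yet held 9056 reads over all libraries against 627. On the protein-coding scale Rps27rt lay above Rps27 in D1IA of set 045, at 613 against 510, and below it in the other libraries.

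Among the paralogs, Rps27l was identical to Rps27 at 76.7% of 227 aligned bases, so that their reads can be told apart. Rps27l, known in mouse and human cells as a target of p53, was at 156, 173, 192 and 126 in set 045 and at 311, 396, 378 and 238 in set 076, with no overlap. Rps27, its parent, was at 467 to 664 and at 625 to 1017. Rpl22l1 lay below Rpl22, which in mouse is known to repress it, in D1IA and D2IA of set 045 (162 against 247, and 142 against 214) and below or level with it in set 076 (162 to 165 against 163 to 193), but above it in C1IA and C2IA (196 against 171 and 196 against 167). Rpl7l1 was at 34.2 to 102, below Rpl7 at 546 to 910 in every library.

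Rpl3l, which replaces the peptidyl transferase protein Rpl3 in the ribosomes of mouse heart and skeletal muscle, had 0 reads in set 045. In set 076 it had 5 and 1 reads in the IgG libraries and 126 and 12 in the antibody libraries, while Rpl3 had a level of 584 to 698. Its rate over set 076 was at least 10.4-fold higher than over set 045, taken against a floor of 3 counts over that set, and without D1IA of set 076 at least 1.71-fold higher. Intervals and floors here cover counting error only. Skeletal muscle markers moved with it: all 10 were above 0 in set 076, and their sum was 12.8 and 138 with IgG but 5821 in D1IA and 461 in D2IA of the antibody group. Their part in the Rpl3l value was not tested. In set 045 the sum was 13.3 to 128 with IgG and 5.67 to 79.4 with the antibody, where Tnnt3, Mybpc1, Myh1 and Pvalb were at 0 in both antibody libraries.

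The median spread among libraries was smaller for these genes than for all genes tested. Over the 4 libraries of set 045 the median SD on the log2 scale was 0.32 for the 82 members, against 0.59 for all 18170 genes tested and 0.42 for the 1974 genes with a mean of at least 100. In set 076 it was 0.15 for the members, 0.35 for all genes and 0.31 for genes of at least 100. A member had a median of 370 reads per library in set 045 and 2098 in set 076, which alone gives a counting error of 5.20% and 2.18%. Rpl15, Rpl9, Rpl38 and Rpl35, all of the large subunit, varied least in set 045 among genes with reads there, with SDs of 0.11 to 0.15, and Rpl10, Rpl7l1, Rps26 and Rpl37 varied most after Rps12, with 0.51 to 0.77. In set 076 Rpl22l1 stood at 165, 162, 164 and 163, an SD of 0.01, followed by Rpl14, Rps9, Rps20, Rpl39 and Rpl8 with 0.06 to 0.08.

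Most genes of a library deviated from their set mean in the same direction. In set 045 77 of the 82 genes in C1IA and 71 in C2IA lay below their own set mean, and 74 in D1IA and 70 in D2IA lay above it. In set 076 78 genes lay above it in G2IA and 68 in D1IA, 81 lay below it in D2IA, and G1IA was split with 47 above. Counts of genes over the same few libraries are thus not counts of independent observations.

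The comparison of the treatments asked what blocking Dll1 did to these genes. Over all 8 libraries, with the set as a term, no gene at all passed the threshold (limma, 0 of 18170, 0% called, with 278 at an unadjusted p under 0.05), and none of the 82 members had an unadjusted p under 0.05. The median log2 difference, antibody minus IgG, was 0.18 over the members, 75 of which were positive, against -0.07 over all genes. In TPM as deposited 2 of 80 members were positive, with a median of -0.22 against -0.17 over all genes, so that the direction depended on the scale. Without D1IA of set 045 the members' median was 0.06 and that of all genes 0.02, without C1IA or C2IA of that set the members' median was 0.12 and 0.10, and without D2IA of set 076 it was 0.30. Rps12 had the smallest p of the members, with a difference of -2.44 (SE 1.07, unadjusted p = 0.0504), followed by Rpl7l1 with 0.51 (SE 0.26). The other members of smallest p were Rpl24, Rpl10, Rpl3l, Rpl6l and Rps13 among positive differences (0.26 to 1.38) and Rpl22l1, Rpl27, Rpl36a, Rps27l and Rpl38 among negative ones (-0.04 to -0.22).

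Within set 045, both antibody libraries lay above both IgG libraries for 72 of the 82 genes, where 14.2% of all genes tested did so, and below them for 3, where 20.8% did. The 3 were Rpl22l1 (196 and 196 with IgG, 162 and 142 with the antibody), Rpl27 (22.0 and 19.4 against 10.2 and 19.1) and Rpl36a (210 and 203 against 164 and 179). The count of 72 was 70 with median-of-ratios scaling (16.1% of all genes), 72 with the members left out of the total (15.2%) and 71 in reads relative to protein-coding reads (17.4%). In TPM as deposited it was 0, where 1.4% of all genes did so. Without D1IA it was 73, but with 1 antibody library left 33.5% of all genes did so. The limma test within the set, on 2 against 2 libraries, called none of 18211 genes (0%, with 752 at an unadjusted p under 0.05), and the median difference of the 79 members tested there was 0.49 against -0.14 for all genes. In TPM as deposited these medians were -0.35 and -0.57, with 2 of 78 members positive.

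Rpl10 had the smallest p of the members in set 045, with levels of 122 and 119 under IgG and of 322 and 284 under the antibody, a difference of 1.32 (SE 0.29, unadjusted p = 0.0057, limma adjusted p = 0.827). Rps26, a small subunit protein at the mRNA exit channel in yeast, held 668 and 617 against 1306 and 1105, a difference of 0.90 (SE 0.32). Rpl7l1 held 34.2 and 53.2 against 82.0 and 86.4, a difference of 0.96 (SE 0.34). The groups did not overlap for any of these genes, and no adjusted p passed. Rps29 and Rps4x followed with 0.74 and 0.70, and Rps4x, the X-linked small subunit gene, held 1211 and 1075 against 2058 and 1666.

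Several other lists also had antibody libraries above IgG in set 045. Of 18 translation factors, 13 lay above IgG in both antibody libraries (14.2% of all genes) and none below (20.8%). Among the 13 were Eif3f (difference 0.73) and Pabpc1 (0.58), the poly(A)-binding protein. Summed markers of 4 lists lay above IgG in both antibody libraries, while the sums of skeletal muscle, plasma and B cell, and brown fat markers overlapped. Gene by gene, 5 of 9 macrophage, 4 of 8 endothelial, 4 of 10 smooth muscle and 4 of 8 proliferation genes lay above without overlap (14.2% of all genes). Below without overlap lay 1 smooth muscle gene and none of the macrophage, endothelial or proliferation genes (20.8% of all genes). The 9 macrophage markers summed to 6384 and 10792 with IgG against 10877 and 15857 with the antibody, and the 8 endothelial markers to 624 and 867 against 924 and 1278. The 10 smooth muscle markers summed to 603 and 737 against 1003 and 1017, and the 8 proliferation genes to 83.6 and 113 against 144 and 152. The part of these lists in the difference of the ribosomal protein genes was not tested.

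Genes of the other ribosome and of ribosome assembly had another pattern in set 045. Mitochondrial ribosomal protein genes, which build the separate ribosome of that organelle, had 4 of 78 above IgG without overlap (5.13%) and 14 below (17.9%). Their median difference was -0.03. Ribosome assembly genes had 7 of 30 above (23.3%) and 9 below (30%), with a median of -0.19. Over all genes tested, 14.2% lay above and 20.8% below.

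Within set 076 the median difference of the 82 members was -0.15, with 73 negative, against a median of 0.00 for all genes. The value rested on single libraries: without D2IA the median was -0.02, above that of all genes at -0.19, and without G2IA it was -0.08 against -0.11. Without D1IA it was -0.26 against 0.16. Both antibody libraries lay below both IgG libraries for 28 members (11% of all genes tested) and above them for Rpl3l and Rpl6l (7.99%). The count of 28 was 1 with median-of-ratios scaling, where 13.9% of all genes lay below, and 3 in reads relative to protein-coding reads (11.6%). It was 36 in TPM as deposited (7.03%) and 74 without D1IA of that set (17.6%), so that it rests on the scale and on that library. The limma test called 9 of 17300 genes, all lower (0.052%), and no member. Rpl6l and Rpl3l had the smallest p of the members, with differences of 1.56 (SE 0.55) and 2.76 (SE 1.01) on reads of 12 or fewer and of 126 or fewer per library, and Rps12 followed with -3.89 (SE 1.57).

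Members that followed by p in the negative direction were Rpl10 (284 and 261 with IgG, 232 and 227 with the antibody) and Rpsa (769 and 845 against 736 and 632), with differences of -0.24 and -0.24. In both the groups did not overlap, and each limma adjusted p was 1.00 when rounded. Other lists differed between the groups in this set. All 8 plasma and B cell markers were lower in both antibody libraries, with sums of 8334 and 12679 with IgG against 516 and 906. The 10 skeletal muscle markers summed to 12.8 and 138 against 461 and 5821. The 8 endothelial markers summed to 878 and 819 against 556 and 745, with negative differences in all 8. Of 18 translation factors, 14 had negative differences, 6 lay below IgG without overlap (11% of all genes) and 1 above (7.99%). Their part in the values of the members was not tested.

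For 26 members, Rpl10, Rpsa, Rps19 and Rps4x among them, the antibody libraries lay above IgG in set 045 and below it in set 076 without overlap, where 2.25% of all genes did so. No member did the opposite (2.24% of all genes), lay above IgG in both sets (0.66%) or lay below it in both (1.45%). The count of 26 was 0 with median-of-ratios scaling (3.31% of all genes) and in TPM as deposited (0.143%), and 2 in reads relative to protein-coding reads (2.66%). It was 67 without D1IA of set 076 (3.65%). The same change of direction was present in 5 of 18 translation factors and in 2 of 8 endothelial markers. The difference of the treatment effect between the sets was tested by an interaction term, which called none of 18170 genes (limma, 0%, with 924 at an unadjusted p under 0.05). The members' median was -0.63 in this test against 0.14 for all genes, and 77 of 82 were negative. In TPM as deposited the medians were 0.28 and 0.42, with 77 of 80 members positive. Rpl10 had the smallest p, with -1.56 (SE 0.34, unadjusted p = 0.00216, limma adjusted p = 0.798), followed by Rps26 with -1.12 (SE 0.42).

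**Figure D4:**
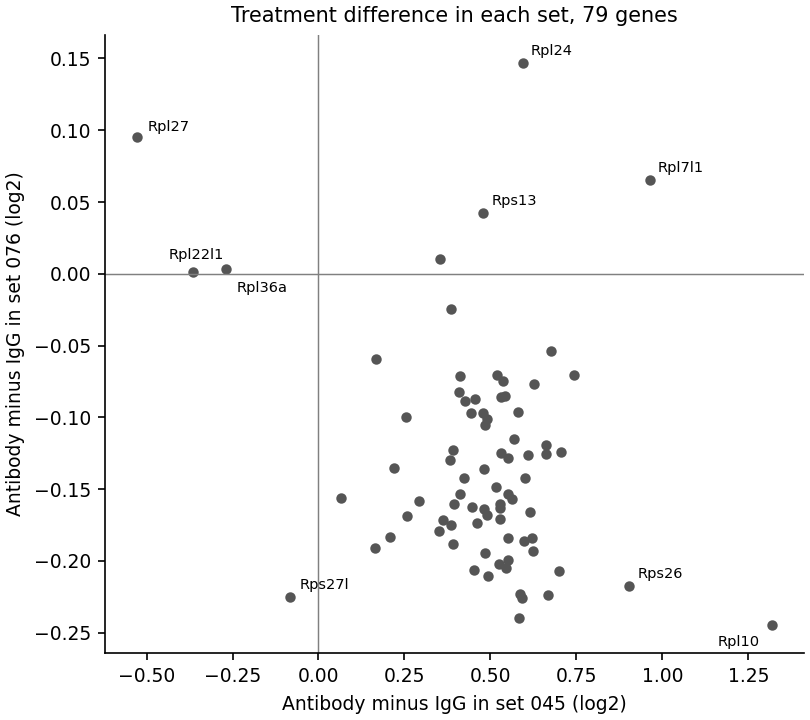
Each point is 1 of 79 ribosomal protein genes tested in both sets, with the log2 difference of antibody minus IgG in set 045 on the horizontal axis and in set 076 on the vertical axis, which has a finer scale. Most points lie at the lower right, higher with the antibody in set 045 and lower in set 076, with Rpl10 outermost at 1.32 and -0.24. Rpl27, Rpl22l1 and Rpl36a lie at the left. On the vertical axis Rpl27 stands at 0.095, and Rpl22l1 and Rpl36a stand on the zero line with 0.001 and 0.003.

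The sets themselves were compared with the treatment as a term. Of 18170 genes, 1729 were called (9.52%), 486 of them higher in set 076 (2.67%) and 1243 lower (6.84%). Of the 82 members 3 were called higher, Rps27l, Rps12 and Rpl27, and 1 lower, Rps3. The median difference, set 076 minus set 045, was -0.06 over the members and -0.27 over all genes. With median-of-ratios scaling these medians became 0.28 and 0.03, and in TPM as deposited 3.46 and 2.17, so the sign of the members' median depended on the scale. It was also 0.05 without D1IA of set 045 and without D2IA of set 076. Members lay above all genes by 0.21 on the protein-coding scale and by 0.25 with median-of-ratios scaling. The size of this gap varied, with 0.03 under no filter, 0.08 without G2IA of set 076, 0.11 with a pseudocount of 10 and 1.29 in TPM as deposited.

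Rps27l rose by 1.02 on the log2 scale (SE 0.24, limma adjusted p = 0.0361), 2.02-fold. Rpl27 rose by 1.14 (SE 0.29, limma adjusted p = 0.0462) from 3 to 21 reads per library in set 045 and 100 to 204 in set 076. Summed with the rows named as its copies, Rpl27 differed by 0.57 and did not pass (limma adjusted p = 0.155). Rps12 rose by 4.52 (SE 1.07, limma adjusted p = 0.0385), a fitted value that depends on the pseudocount, since set 045 held 1 read. The ratio of its reads, 407 against 1 and relative to protein-coding reads, was 88.2, with an exact 95% interval of 15.7 to 3493. Summed with its copies, Rps12 differed by -0.22 (limma adjusted p = 0.597), the opposite direction. Both sums consist mostly of reads of the -ps3 row, so that they describe that row more than the named gene.

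Rps3, a small subunit protein at the mRNA entry channel, was lower in set 076. In set 045 its levels were 705 and 645 under IgG and 1236 and 791 under the antibody, and in set 076 they were 433 and 414 under IgG and 399 and 341 under the antibody, with no overlap between the sets. The difference was -1.05 (SE 0.25, limma adjusted p = 0.0397), and in TPM as deposited it was 2.60. The Rps3 window shown above lies at chr7:99483685-99483744 on the minus strand of GRCm38.p6, and that of Rps27l at chr9:66946051-66946110 on the plus strand.

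None of the 4 calls held in every fit that left out 1 library. Rps27l, Rps12 and Rpl27 passed without D1IA of set 045 or without D2IA of set 076, and Rps3 passed without D1IA of set 045. They were lost without any other library, with limma adjusted p-values of up to 0.135 for Rps27l, 0.149 for Rpl27 and 0.141 for Rps12 and Rps3, while the differences stayed at 0.90 to 1.16, 0.91 to 1.25, 3.77 to 5.65 and -1.15 to -0.84.

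**Figure D5:**
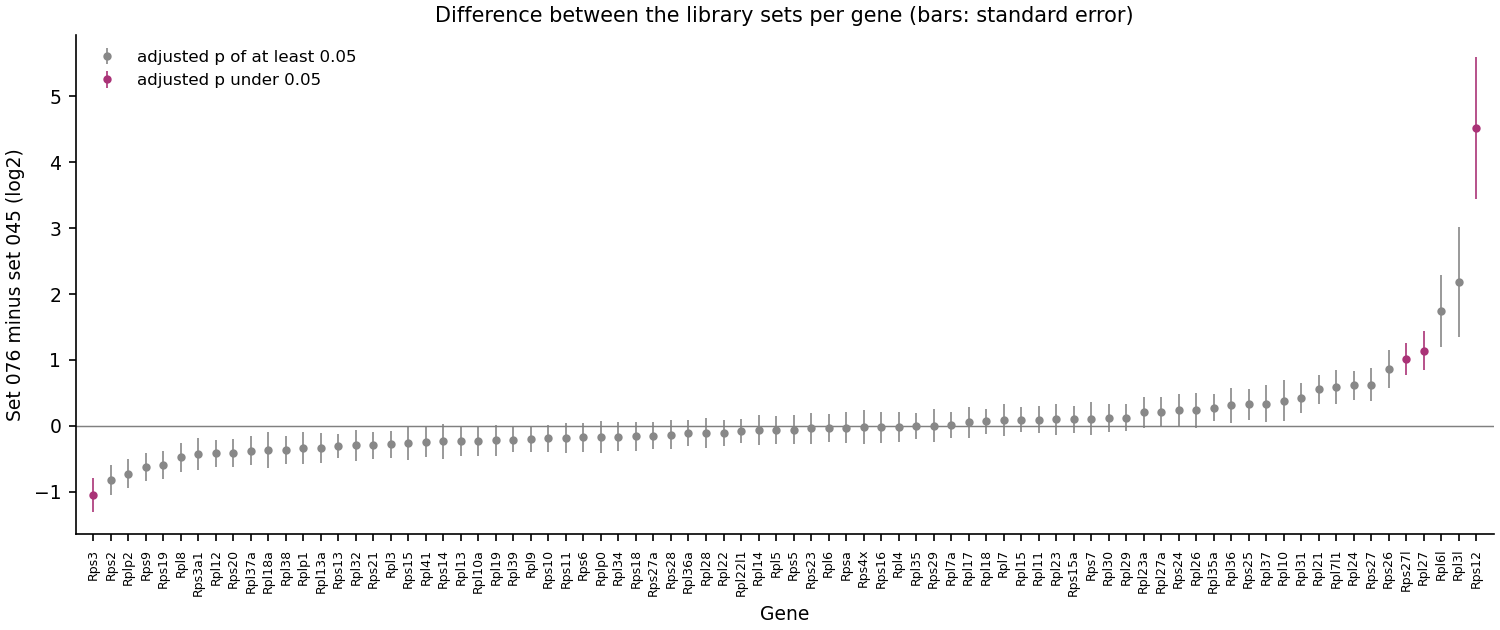
Points give the log2 difference of set 076 minus set 045 for 80 of the 82 tested genes, with standard errors as bars, in order of size, and colour marks an adjusted p under 0.05 (limma). Rps3 stands at the lower end with -1.05 and Rps12 at the upper end with 4.52 while most genes lie near 0.

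The members next in line did not pass the test. They were Rps2, Rplp2, Rps9 and Rps19 among lower genes, with differences of -0.82, -0.73, -0.63 and -0.59, and Rpl6l, Rps26 and Rpl24 among higher ones, with 1.74, 0.87 and 0.62. Members that held a small nucleolar RNA gene had a median difference of -0.10 (30 genes) and the others of -0.07 (52 genes). Over the 82 genes the difference had a Spearman rho of -0.16 with exon length, a description across genes that share libraries.

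Ribosomal genes that the name rule left out were examined beside the members. Fau, which encodes the small subunit protein eS30 fused to a ubiquitin-like protein, was at 899 to 1264 in set 045 and at 181 to 405 in set 076, and fell by 1.78 on the log2 scale (limma adjusted p = 0.0101), further than any member. Rack1, the signalling scaffold on the small subunit, was at 293 to 516 and 293 to 347, and Rpl36al at 121 to 135 and 175 to 196. Neither passed the test. Of 78 mitochondrial ribosomal protein genes, 3 were called higher in set 076, Mrpl32, Mrpl42 and Mrpl46, with differences of 1.35, 1.27 and 1.37, and none lower. Of 30 ribosome assembly genes, 1 was called higher, Nop10 with 1.14, and 5 lower, with Rrs1 (-1.06) and Nop2 (-0.93) of smallest p. Of 18 translation factors, Eef1g and Eef1d, subunits of the same elongation factor, were called lower with -0.84 and -0.75. Over all genes tested, 2.67% were called higher and 6.84% lower.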

How the data were processed

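RNA was extracted with TRIZOL, depleted of ribosomal RNA and made into directional libraries, per the labels' protocols. The authors deposited 1 table of TPM for 49585 mouse genes in 8 libraries. The build named in the submitters' processing notes is hg19, a human build, while the identifiers are mouse, and no source used here names the aligner, counter or annotation. Column names give the treatment and the set but no sample number of the labels, so a column was a replicate of its group.

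TPM was rescaled to nuclear protein-coding genes (GENCODE M21). limma 3.58.1 in R 4.3.3, with a trended robust empirical Bayes step, tested log2(value + 1), two-sided, where the mean reached 1, with Benjamini-Hochberg adjustment over all genes tested and a threshold of 0.05. A difference on this scale understates the change of low genes. The test was run on simulated data first. Whole reads were recovered for 100% of 25386 genes above 0 (relative tolerance 1e-05, at most 0.1 read), 5682 of them with a derived length, including 22 members. On these reads limma-voom, an alternative, called 0 genes for the treatment and 2043 between the sets.

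Members, lists and tests were chosen with earlier results of these data known. Counts of groups without overlap, shared sequence, promoter runs and the sums with copies were added after the values had been seen. Named are members past the threshold, otherwise the 6 of smallest p per direction of each test, the 6 of highest and lowest level, spread in 1 set, paralogs, stalk genes and genes at 0, and in other lists the 2 of smallest p per direction. Gm2000, Gm11518, Rps2, Rps6 and Rps21 were named after their values or promoters had been seen, and Tnnt3, Mybpc1, Myh1 and Pvalb because they were at 0. The alternatives were another scale, pseudocounts of 0.1 and 10, no filter or a mean of at least 10, no trend, no set term, leaving out each library, and leaving out 2 libraries with Xist above 1 TPM. That cut-off was set on TPM as deposited, which is not comparable between the sets. A few genes that the naming rule would take are not reported here and are not drawn where figures name genes.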

Additional observations from a re-analysis of the deposited data

Results flagged for a closer look

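In 84 groups of 4 libraries, each holding the values of 1 named member or the summed share under 1 treatment, 3 had a library far from the others by Dixon's gap test (chance gives about 1 in 20). In the antibody group Rps12 stood at 35.05 in D1IA of set 076 on the protein-coding scale, above the other libraries, and Rpl3l at 31.2 in the same library, the one with the highest skeletal muscle markers. Rpl22l1 stood at 142 in D2IA of set 045, below the others, while the antibody libraries otherwise held 162 to 164.

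The treatment differed in direction between the sets for 26 members, with the antibody libraries above IgG in set 045 and below it in set 076 without overlap, where 2.25% of all genes tested did so. This held on the protein-coding scale: the count was 0 with median-of-ratios scaling and in TPM as deposited, and 2 in reads relative to protein-coding reads. The interaction test across all genes called none of them (limma, smallest adjusted p of a member 0.798).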

How the results depend on the processing

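No paired analysis was possible because the columns carry no sample number of the labels. Against 1729 genes, 3 members higher and 1 lower between the sets, TPM as deposited called 10898, 80 and 0. No trend gave 773, 0 and 0, no filter 913, 0 and 0, and leaving out the 2 libraries with Xist above 1 TPM 407, 0 and 0. Members called lower numbered 0 with median-of-ratios scaling and with limma-voom on recovered reads and 2 at a mean of at least 10. Summing copies left 1 higher. Leaving out each library gave 145 to 3008 genes, 0 to 4 members higher and 0 to 1 lower. In TPM Rps3 turned to 2.60, and with summed copies Rps12 to -0.22, a sum made up mostly of Rps12-ps3.

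For the treatment over all libraries TPM called 1 gene in place of 0. Within set 076 it called 22 in place of 9, and leaving out a library gave 27 to 81. The interaction called 134 genes in TPM, 5 with a pseudocount of 10 and 0 to 5 with a library left out. No alternative fit of the treatment over all libraries called a member. Members without overlap above IgG in set 045 numbered 0 in TPM (1.4% of all genes) in place of 72 (14.2%), and in set 076 5 (9%) in place of 2 (7.99%). Those below in set 076 numbered 1 with median-of-ratios scaling, 3 in reads relative to protein-coding reads and 74 without D1IA, in place of 28. Members above in set 045 and below in set 076 numbered 0 with median-of-ratios scaling and in TPM, 2 in reads and 67 without D1IA of set 076, in place of 26. The ratio of summed shares in set 045 was 0.757 of all TPM in place of 1.43. The cause of these changes was not tested. With 2 libraries per group and set, and 663099 protein-coding reads in the shallowest library, small differences were not detectable.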
